A study of Homo sapiens with 3 samples.

Results

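The 34 interferon-stimulated genes examined here were followed through RNA-seq of 3 cultures of human liver cancer cells. They were chosen by gene symbol from what is known of interferon responses, though with earlier results of these data known. All 34 were found among the 25270 symbols of the files. HepG2 is an established liver cancer cell line, which the study lists under hepatocellular carcinoma. The groups were parental HepG2 cells with no treatment, HepG2/metR cells, and HepG2/metR cells given oxamate. HepG2/metR cells were selected by survival in metformin, an inhibitor of mitochondrial complex I, for more than 5 months. Oxamate, an inhibitor of lactate dehydrogenase, was given at 40 mM for 24 h. The study used HepG2/metR as a model of cells with strong glycolysis and oxamate to limit lactate production, so the comparisons ask how these genes stood after metformin selection and after lactate production was inhibited. HepG2/metR is 1 selected line, and no interferon was given to any culture according to the labels and the methods.

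There was 1 library per condition (n = 1), so no difference has a replicate check and no test was possible. Each deposited value reads as log2(FPKM + 1), with FPKM standing for fragments per kilobase of transcript, scaled to library size, a unit inferred from the values. Levels are given here as FPKM, and differences as differences of log2(FPKM + 1), which understate the change of low genes. The number of reads is unknown, but the smallest values place the HepG2/metR library at 1.21 times and the oxamate library at 1.24 times the depth of the parental one. The hepatocyte markers go against the label of liver cells in HepG2/metR: all 14 genes of a marker list were at least 2-fold lower than in parental cells, their summed level was 35510 FPKM in the parental culture, 14.3 in HepG2/metR and 11.5 under oxamate, and APOA1, TTR, FGA and FGG were listed at 0 in HepG2/metR. The part of this loss in the results that follow was not tested.

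Interferons are secreted proteins that cells release when sensors in the cytosol or in endosomes meet viral nucleic acid. Type I interferons signal through the receptor chains IFNAR1 and IFNAR2 and the kinases JAK1 and TYK2 to STAT proteins, which join IRF9 in a complex that binds the interferon-stimulated response element (ISRE) in promoters, whereas interferon gamma acts through STAT dimers on the gamma-activated site (GAS). The genes induced in this way encode the sensors and transcription factors of the same pathway, proteins that bind or degrade viral RNA, proteins that block viral entry or release, the ubiquitin-like modifier ISG15 with its enzymes, and inhibitors that end the response. Hepatocytes respond to type I and type III interferons, and many tumour cell lines hold some of these genes at a low level without added interferon.

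RefSeq promoter windows, from 250 bases before to 50 after the transcript start in build GRCh38.p14, were matched for 26 of the 34 members. DHX58, IRF7, USP18, IFIT2, OAS2, OASL, MX2 and IFITM2 had no entry. The core of the ISRE was searched on both strands as GAAA, any 2 bases and GAAA again, which on the other strand reads TTTC, any 2 bases and TTTC, with overlapping matches counted separately. At least 1 match was held by 16 of the 26 windows (61.5%), against 3.57% of the 35116 windows in the table. The GAS letters TTCNNNGAA, which read the same on both strands, were found in 6 of the 26 windows (23.1%) against 7.66% of all windows. The 7 members below hold the ISRE core before the transcript start and also differed at least 2-fold between parental and HepG2/metR cells, and they are shown because the same letters stood before genes that were higher and genes that were lower. Each stretch reaches up to 30 bases beyond the outermost matches, on the strand of the gene, and capitals mark the matches.
IFIT1 (chr10:89392477-89392559, plus strand): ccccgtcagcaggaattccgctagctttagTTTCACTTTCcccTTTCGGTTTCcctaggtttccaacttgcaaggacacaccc
IFIT3 (chr10:89327811-89327914, plus strand): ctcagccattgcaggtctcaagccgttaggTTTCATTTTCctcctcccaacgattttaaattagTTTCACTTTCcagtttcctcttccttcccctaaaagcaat
IFIT5 (chr10:89414493-89414567, plus strand): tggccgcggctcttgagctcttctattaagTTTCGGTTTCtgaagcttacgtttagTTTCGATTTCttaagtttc
HERC5 (chr4:88456964-88457084, plus strand): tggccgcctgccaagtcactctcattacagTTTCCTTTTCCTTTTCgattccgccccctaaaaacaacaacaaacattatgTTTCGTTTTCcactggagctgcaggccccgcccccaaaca
SAMD9 (chr7:93118076-93118145, minus strand): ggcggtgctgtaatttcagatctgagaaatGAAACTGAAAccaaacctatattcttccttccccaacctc
ISG15 (chr1:1013354-1013429, plus strand): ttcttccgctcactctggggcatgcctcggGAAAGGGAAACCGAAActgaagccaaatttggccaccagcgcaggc
BST2 (chr19:17405715-17405790, minus strand): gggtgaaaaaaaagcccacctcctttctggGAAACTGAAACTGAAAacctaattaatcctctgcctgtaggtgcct

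IFIT1, IFIT3, IFIT5, HERC5 and SAMD9 were the higher genes of these 7, and ISG15 and BST2 the lower ones. In HERC5, ISG15 and BST2 a pair of matches overlapped, so that 16 bases held both. IFIT5 held a further match across its transcript start, which is not shown. Of the 9 members with a window that differed at least 2-fold, all 5 higher ones and 2 of the 4 lower ones held the ISRE core. The lower members without it, IRF9 and OAS1, held a GAS match, as did BST2. Among the 10 members within 2-fold, 5 held the ISRE core, namely IFIH1, OAS3, MX1, IFITM3 and IFI6, of which MX1 was past 2-fold lower with the smaller pseudocounts. Of the members past 2-fold, IRF7, IFIT2 and IFITM2 among the higher ones and USP18 and MX2 among the lower ones had no window. They are missing from these counts, and IFIT1, IFIT3 and IFIT5 are neighbours of the same family. Whether the ISRE core goes with a direction was not tested. A match describes letters only, and binding was not measured.

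**Figure D1:**
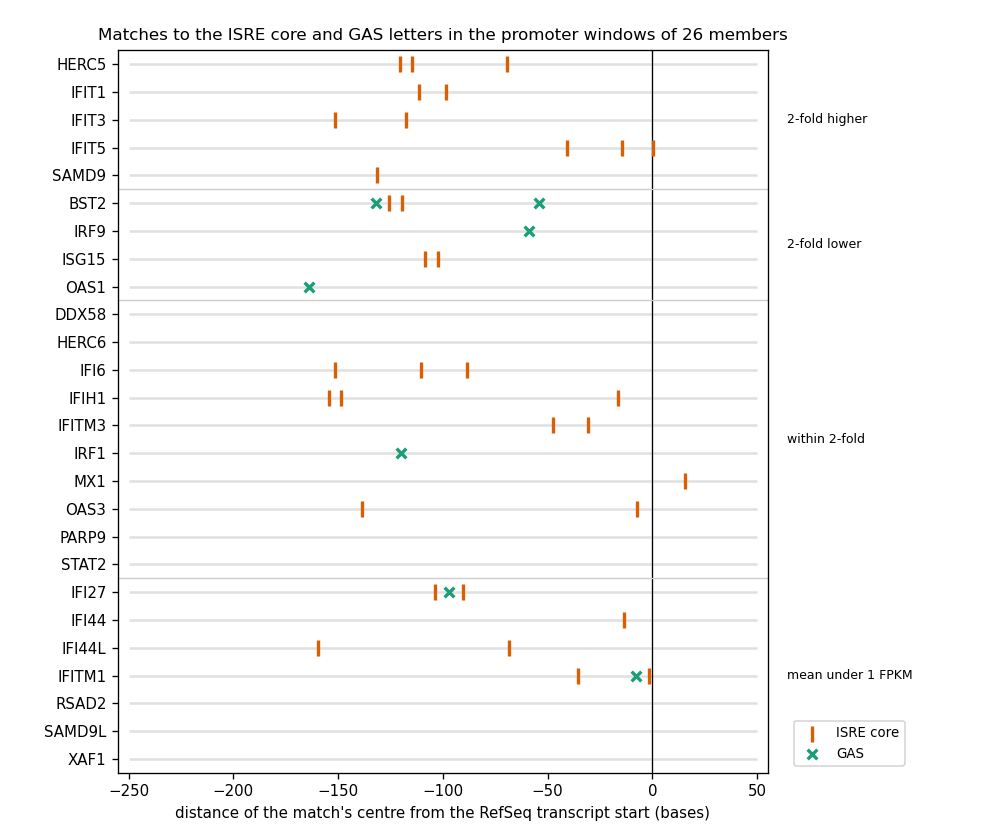
Position of each match to the ISRE core (orange bars) and to the GAS letters (green crosses) in the promoter windows of 26 members, as the distance in bases of the match's centre from the RefSeq transcript start, with members grouped by their difference between HepG2/metR and parental HepG2 cells. Members without a window are not shown, among them IRF7, IFIT2 and IFITM2 of the higher group and USP18 and MX2 of the lower group. Of those shown, all 5 in the higher group and 2 of the 4 in the lower group carry an ISRE core. So do 5 of the 10 within 2-fold and 4 of the 7 with a mean under 1 FPKM. A GAS match is carried by 3 of the 4 in the lower group.

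In HepG2/metR cells the interferon-stimulated genes differed in both directions. More of them were higher than lower at the minimum used here, but this excess depended on that minimum. With no minimum, 8 members were at least 2-fold higher and 7 lower, against 8.31% and 9.60% of all symbols. At a mean of at least 5 FPKM, 2 were higher and 3 lower, against 13.9% and 15.9% of all genes with such a mean. A mean of at least 1 FPKM over the libraries was reached by 26 of the 34 members, and by 12210 of all genes. Of the 26, 8 (30.8%) exceeded their parental level at least 2-fold in HepG2/metR, namely IRF7, HERC5, IFIT1, IFIT2, IFIT3, IFIT5, IFITM2 and SAMD9, against 16.6% of all genes kept. A further 6 (23.1%) were at least 2-fold lower, namely IRF9, ISG15, USP18, OAS1, MX2 and BST2, against 17.6% of all genes kept. The lower share thus lay nearer to that of all genes than the higher share did. Of the 26 members, 16 were above 0 and 10 below. Their median difference was 0.64, against 0.02 for all genes kept. The median size of the difference without its sign was 1.01 against 0.65. Of the 14 members past 2-fold, 7 were under 1 FPKM in one of these libraries (IRF7, HERC5, USP18, IFIT1, IFIT2, MX2 and SAMD9), and such genes passed the minimum through the culture in which they were high. IFIT5 and OAS1 lay within 0.1 of the 2-fold limit. Because the pseudocount of 1 shrinks differences of low genes, IRF1, HERC6 and OAS2 were also past 2-fold higher and MX1 past 2-fold lower with pseudocounts of 0.1 and 0.01. The counts were then 11 higher and 7 lower, against 19.1% and 19.8% of all genes with a pseudocount of 0.1. In these bulk samples fewer cells with a transcript and less of it per cell cannot be told apart.

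**Figure D2:**
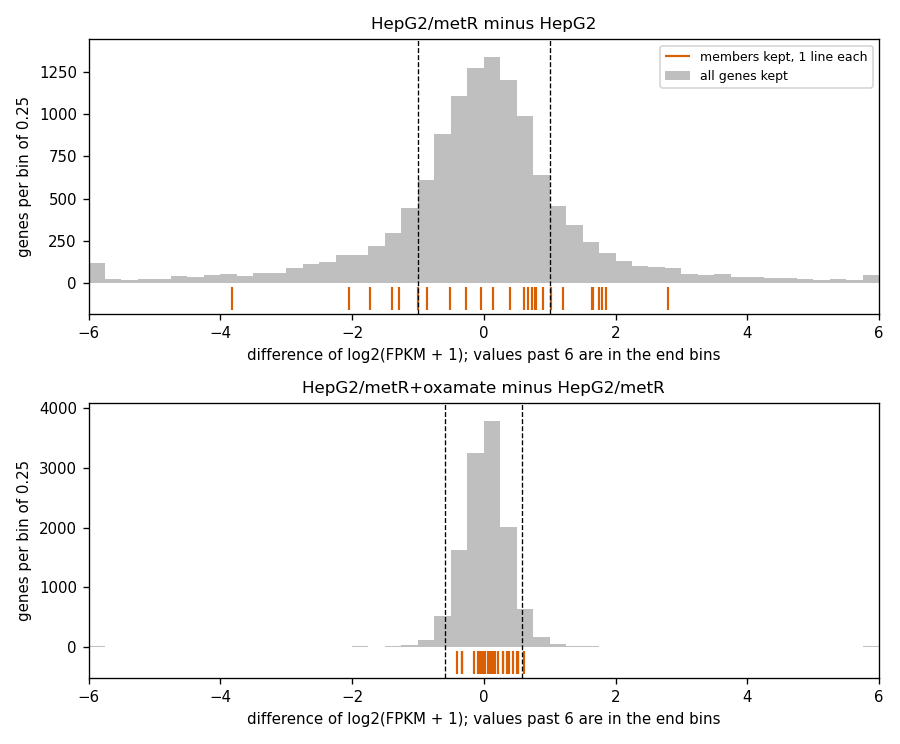
Number of genes (vertical axis) by difference of log2(FPKM + 1) (horizontal axis), for HepG2/metR minus parental HepG2 cells above and for oxamate-treated minus untreated HepG2/metR cells below, with 1 orange line for each of the 26 members kept and dashed lines at the 2-fold and 1.5-fold limits. The members lie on both sides of the limits above, with 8 past the upper and 6 past the lower one, and 1 of them passes a limit below.

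Members also crossed the level of 1 FPKM in both directions. IRF7, HERC5, HERC6, IFIT1, IFIT2, OAS2 and SAMD9 were under 1 FPKM in the parental library and at or above it in HepG2/metR, which is 7 of 34 members (20.6%) against 5.43% of all symbols. USP18, MX1, MX2, IFITM1 and IFI27 did the reverse, which is 5 of 34 (14.7%) against 5.20% of all symbols. The symbols of the whole table include many that were listed at 0 throughout and could not cross.

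The membrane proteins dominated the members' RNA. IFITM3, which holds back the fusion of incoming viruses in endosomes, was the highest member in each library, at 208 FPKM in the parental culture, 360.2 in HepG2/metR and 286 under oxamate. Its close relative IFITM2 was listed at 65.3, 207 and 155 FPKM in the same order. Together these genes made up 55.8% of the members' summed level in the parental library, 80.4% in HepG2/metR and 73.8% under oxamate. IFITM2 was thus 3.17 times as high in HepG2/metR as in parental cells, a difference of 1.65, and IFITM3 differed by 0.79. Their coding sequences are identical at 93.9% of aligned bases in GENCODE release 29, so reads may have been shared between them and the values of each are uncertain. IFITM1, 87.5% identical to IFITM3, ran the other way at a low level, with 1.49 FPKM in the parental culture, 0.549 in HepG2/metR and 0.408 under oxamate. BST2, also called tetherin, which holds budding virus at the cell surface, was listed at 95.02 FPKM in the parental culture, 28.1 in HepG2/metR and 29.3 under oxamate. Its parental level was 3.38 times that in HepG2/metR, and it was the second highest member in parental cells and the third in the others.

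**Figure D3:**
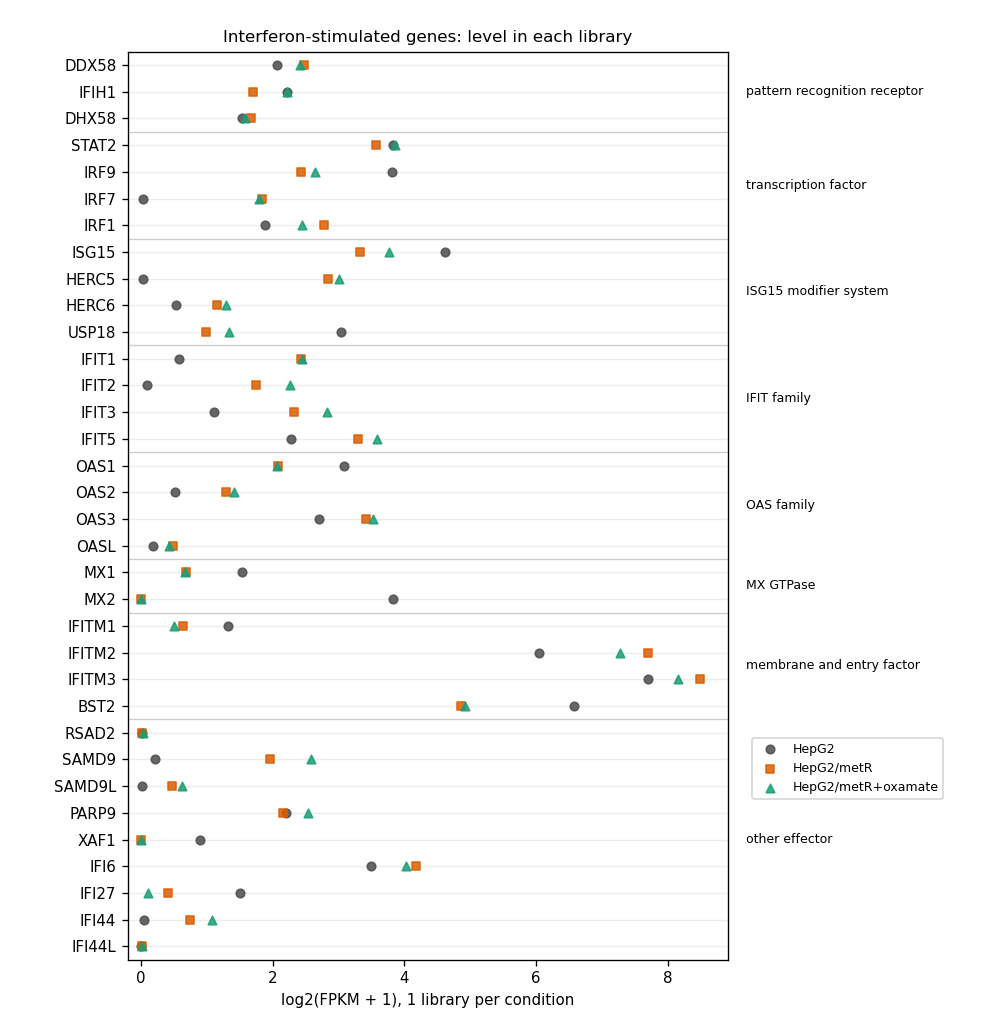
Level of each of the 34 members as log2(FPKM + 1) (horizontal axis) in the parental HepG2 (grey circles), HepG2/metR (orange squares) and oxamate-treated HepG2/metR (green triangles) libraries, grouped by role. Each symbol is 1 library. The orange and green symbols lie near each other for most members, with the parental symbol to their left for the IFIT family and to their right for ISG15, USP18, OAS1, MX2 and BST2.

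The IFIT family was the 1 family in which each member exceeded its parental level at least 2-fold, as 16.6% of all genes kept did. IFIT1 and IFIT2 passed the minimum only through the HepG2/metR libraries, in which they were high, and IFIT5 lay close to the 2-fold limit. IFIT proteins bind viral RNA that lacks the cap modifications of the host, or assist in that. IFIT1 was listed at 0.488 FPKM in the parental culture, 4.39 in HepG2/metR and 4.44 under oxamate, a difference of 1.86 between the first pair. IFIT2 was listed at 0.0621, 2.36 and 3.80 FPKM, a difference of 1.66. IFIT3, which stabilizes IFIT1, was listed at 1.16, 4 and 6.07 FPKM, a difference of 1.21. IFIT5 was the highest of the family in each library, at 3.83, 8.78 and 10.9 FPKM, with a difference of 1.02. All 4 genes lie next to each other on chromosome 10 in RefSeq, where the only other coding gene among them is IFIT1B, which was listed at 0 in each library.

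The ISG15 system was split within itself. ISG15, a ubiquitin-like protein that is joined to other proteins during an interferon response, was listed at 23.5 FPKM in the parental culture, 9.04 in HepG2/metR and 12.6 under oxamate, and its parental level was 2.60 times that in HepG2/metR. USP18, which removes ISG15 from proteins and also blocks signalling at the type I receptor, was listed at 7.22, 0.983 and 1.53 FPKM, a difference of -2.05. HERC5, the main ligase that joins ISG15 to its targets in human cells, went the opposite way and was listed at 0.0247, 6.15 and 7.01 FPKM. Its difference of 2.80 was the largest positive one among the members. HERC6, next to HERC5 on chromosome 4, was listed at 0.446, 1.22 and 1.45 FPKM, which is a difference of 0.62, inside the 2-fold limit with the pseudocount of 1 but past it at 1.27 with a pseudocount of 0.1. Of the other enzymes of the ISG15 pathway, the activating enzyme UBA7 was listed at 2.17 FPKM in the parental culture and 0.391 in HepG2/metR. Its mean was under 1 FPKM. The conjugating enzyme UBE2L6 differed by 0.29 and the ligase TRIM25 by 0.50.

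The OAS and MX genes lie in clusters of their own, and neighbours did not share a direction in the OAS cluster. OAS proteins make short adenylate chains when they meet double-stranded RNA. OAS1 was listed at 7.48 FPKM in the parental culture, 3.24 in HepG2/metR and 3.19 under oxamate, and the parental level was 2.31 times that in HepG2/metR. OAS3, its neighbour on chromosome 12, was listed at 5.49, 9.74 and 10.5 FPKM, a difference of 0.73. OAS2, the next gene, was listed at 0.428, 1.46 and 1.65 FPKM, a difference of 0.78 that became 1.56, past the limit, with a pseudocount of 0.1. OAS1 was thus the highest of this cluster in parental cells and OAS3 in both HepG2/metR libraries. OASL, a relative without the enzyme activity that enhances sensing by RIG-I, stayed under 1 FPKM throughout, between 0.138 and 0.397.

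MX2 had the largest difference of the members. It encodes a dynamin-like GTPase that restricts HIV-1 and herpesviruses, and it was listed at 13.2 FPKM in parental cells and at 0 in both other libraries, a difference of -3.82 for which no ratio can be given. An exact 0 can be a failed estimate, and whether that holds for MX2 was not tested. Of 77 ribosomal protein symbols only RPL3L and RPL10L, whose expression is restricted to certain tissues, were listed at 0 in these libraries. Values of other genes cannot decide the question for MX2. MX1, the neighbouring gene on chromosome 21, which restricts influenza viruses, was listed at 1.91 FPKM in the parental culture, 0.597 in HepG2/metR and 0.595 under oxamate, a difference of -0.86 that became -1.52, past the limit, with a pseudocount of 0.1.

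Among the transcription factors, IRF9 and IRF7 differed in opposite directions. IRF9, the DNA-binding part of the complex with STAT2, was listed at 13.1 FPKM in the parental culture, 4.37 in HepG2/metR and 5.26 under oxamate, a parental level 3.001 times that in HepG2/metR. Its partner STAT2 was listed at 13.2, 10.9 and 13.6 FPKM, a difference of -0.26. IRF7, which amplifies the production of type I interferon, was listed at 0.0245 FPKM in the parental culture, 2.56 in HepG2/metR and 2.46 under oxamate, a difference of 1.80. IRF1, which is induced most strongly by interferon gamma, was listed at 2.70, 5.86 and 4.45 FPKM, a difference of 0.89 that is inside the limit, although it was 1.09 with a pseudocount of 0.1 and 1.008 with upper-quartile scaling, both past it. The parental library therefore held IRF9 but almost no IRF7 RNA, and the HepG2/metR libraries held both at a few FPKM.

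The cytosolic RNA sensors of the list differed less than 2-fold. DDX58, which encodes RIG-I, was listed at 3.21 FPKM in the parental culture, 4.55 in HepG2/metR and 4.35 under oxamate. IFIH1, which encodes the sensor MDA5 of long double-stranded RNA, was listed at 3.66, 2.26 and 3.66 FPKM. DHX58, which encodes their regulator LGP2, was listed at 1.90, 2.19 and 2.003 FPKM. All 3 sensors were at or above 1 FPKM in each library, and none reached 5 FPKM.

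The other effectors were mostly low. SAMD9, an antiviral factor that acts on translation, was listed at 0.159 FPKM in the parental culture, 2.90 in HepG2/metR and 4.97 under oxamate, a difference of 1.75. Its neighbour on chromosome 7, SAMD9L, was listed at 0.0118, 0.383 and 0.540 FPKM, and so differed the same way without reaching 1 FPKM. IFI6, a mitochondrial and endoplasmic reticulum protein, was listed at 10.3, 17.0 and 15.3 FPKM, a difference of 0.67. PARP9, which works with the ubiquitin ligase DTX3L, was listed at 3.58, 3.46 and 4.82 FPKM. RSAD2, which encodes viperin and is among the most strongly induced genes of an interferon response, did not exceed 0.0199 FPKM in any library, and IFI44L did not exceed 0.0119. IFI27 was listed at 1.84 FPKM in the parental culture, 0.328 in HepG2/metR and 0.0787 under oxamate, and XAF1, a pro-apoptotic gene, at 0.865, 0 and 0. IFI44 was listed at 0.0271, 0.671 and 1.12 FPKM. The 8 members with a mean under 1 FPKM were thus also split, with XAF1, IFI27 and IFITM1 higher in parental cells, OASL, SAMD9L and IFI44 higher in HepG2/metR cells, and RSAD2 and IFI44L near 0.

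With oxamate the members differed little. Of the 26 kept, 1 (3.85%) was at least 1.5-fold higher than in untreated HepG2/metR cells, against 4.30% of all genes kept, and 0 were at least 1.5-fold lower, against 3.82%. The member past the limit was SAMD9, with a difference of 0.61 where the limit is 0.585. IFIH1, IFIT2 and IFIT3 lay just inside it, with differences of 0.52, 0.51 and 0.50, and ISG15 followed at 0.44. The lowest were IFITM2 with -0.41, IFITM3 with -0.33 and IRF1 with -0.33. The median difference of the 26 members was 0.11, against 0.02 for all genes kept, and the median size without its sign was 0.19 against 0.21. Of the 26, 16 were above 0, 9 below 0, and MX2 was listed at 0 in both libraries. This comparison shares the HepG2/metR library with the first, so an error in that library enters both. When each library was scaled to the same total, 5 members passed the 1.5-fold limit upward and 0 downward, but that scaling moved the median of all genes from 0.02 to 0.17, and 9.75% of all genes then passed upward and 1.57% downward. With a pseudocount of 0.1 in place of 1, 5 members passed upward, among them IFIH1, IFIT2, IFIT3 and USP18, against 8.34% of all genes.

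**Figure D4:**
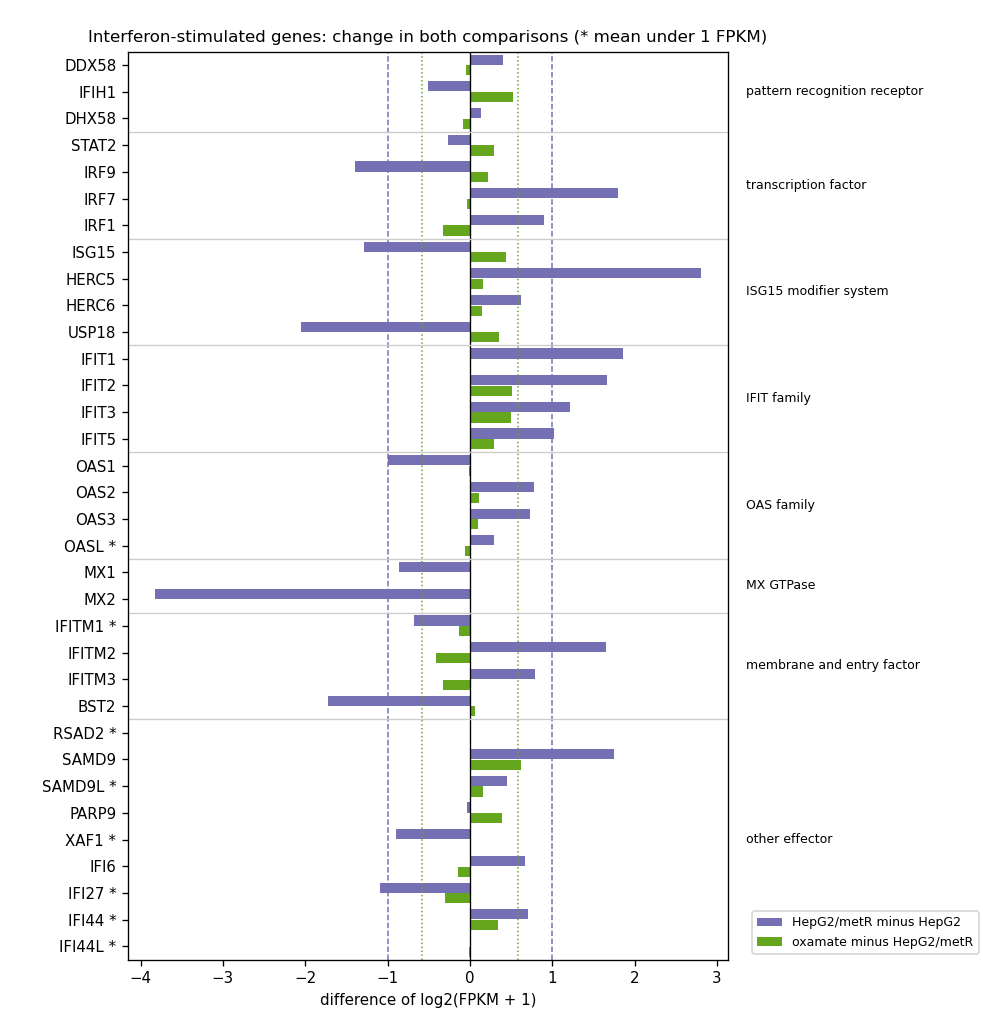
Difference of log2(FPKM + 1) (horizontal axis) of each of the 34 members, for HepG2/metR minus parental HepG2 cells (purple bars) and for oxamate-treated minus untreated HepG2/metR cells (green bars), grouped by role, with dashed purple lines at 2-fold and dotted green lines at 1.5-fold. An asterisk marks a mean under 1 FPKM. The green bars stay inside the dotted lines except that of SAMD9, at 0.61.

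The genes upstream of the members were examined in a list of 84 other genes of the interferon pathway. None of the 21 interferon genes in it reached 0.1 FPKM: 20 were listed at 0 in each library, including IFNB1, IFNG and 13 genes of the IFNA family, and IFNL1 was listed at 0.0534 FPKM in HepG2/metR cells and at 0 in the others. Both chains of the type I receptor were present, IFNAR1 at 11.9, 18.4 and 19.9 FPKM and IFNAR2 at 12.6, 14.6 and 14.1 FPKM in parental, HepG2/metR and oxamate-treated cells. The interferon gamma receptor chain IFNGR1 was lower in HepG2/metR, at 74.7, 12.4 and 17.6 FPKM, a difference of -2.50, while IFNGR2 was listed at 21.9, 33.1 and 28.5. The type III receptor chain IFNLR1 was listed at 2.87, 0.00796 and 0.0755 FPKM, and its partner IL10RB at 11.7, 21.8 and 25.6. RNA of the type I receptor was therefore listed in each culture, and that of the type III receptor's own chain at more than 0.1 FPKM in parental cells only.

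JAK1, JAK2, TYK2 and STAT3 did not differ 2-fold. JAK1 was listed at 18.99, 25.2 and 25.3 FPKM, TYK2 at 17.3, 12.0 and 12.6, and JAK2 at 1.71, 2.36 and 3.31. STAT3, which mediates signals of IL-6 family cytokines, was listed at 32.8, 28.1 and 32.8. Of the 6 inhibitors 5 were kept, and 3 of these were within 2-fold, namely PIAS1 with a difference of -0.20, PTPN2 with -0.16 and PTPN11 with 0.74. SOCS3, which blocks JAK kinases and is induced by IL-6 family cytokines, was listed at 0.388, 17.5 and 12.0 FPKM, a difference of 3.73, whereas SOCS1, the inhibitor tied most closely to interferon, was listed at 2.17, 0.305 and 0. The phosphatase PTPN6 was listed at 4.99, 0.0347 and 0.0850 FPKM, a difference of -2.53.

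Of the 11 sensors and adaptors outside the members 10 were kept, with 2 at least 2-fold higher, 2 lower and 6 within 2-fold. Of all genes kept, 16.6% were as far higher and 17.6% as far lower. MB21D1, which encodes the DNA sensor cGAS, was listed at 0.0258 FPKM in the parental culture, 5.30 in HepG2/metR and 5.24 under oxamate, a difference of 2.62, and its partner TMEM173, which encodes STING, was listed at 2.35, 6.90 and 6.66 FPKM, a difference of 1.24. RNA of cGAS and of STING was therefore higher in the HepG2/metR libraries, although MB21D1 passed the minimum only through the libraries in which it was high. MAVS, the adaptor of RIG-I and MDA5, was listed at 23.2, 10.98 and 19.6 FPKM, with a difference of -1.02 in HepG2/metR and of 0.78 with oxamate. MYD88, the adaptor of most Toll-like receptors, was listed at 22.2, 4.67 and 5.30 FPKM, a difference of -2.03. IRF3, which is activated by these pathways, was listed at 33.6, 37.9 and 39.5 FPKM. Besides IRF3, those within 2-fold were the kinases TBK1 with a difference of 0.34 and IKBKE with 0.36, the adaptor TICAM1 with 0.63, and the transcription factors IRF2 with -0.63 and IRF5 with -0.06.

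**Figure D5:**
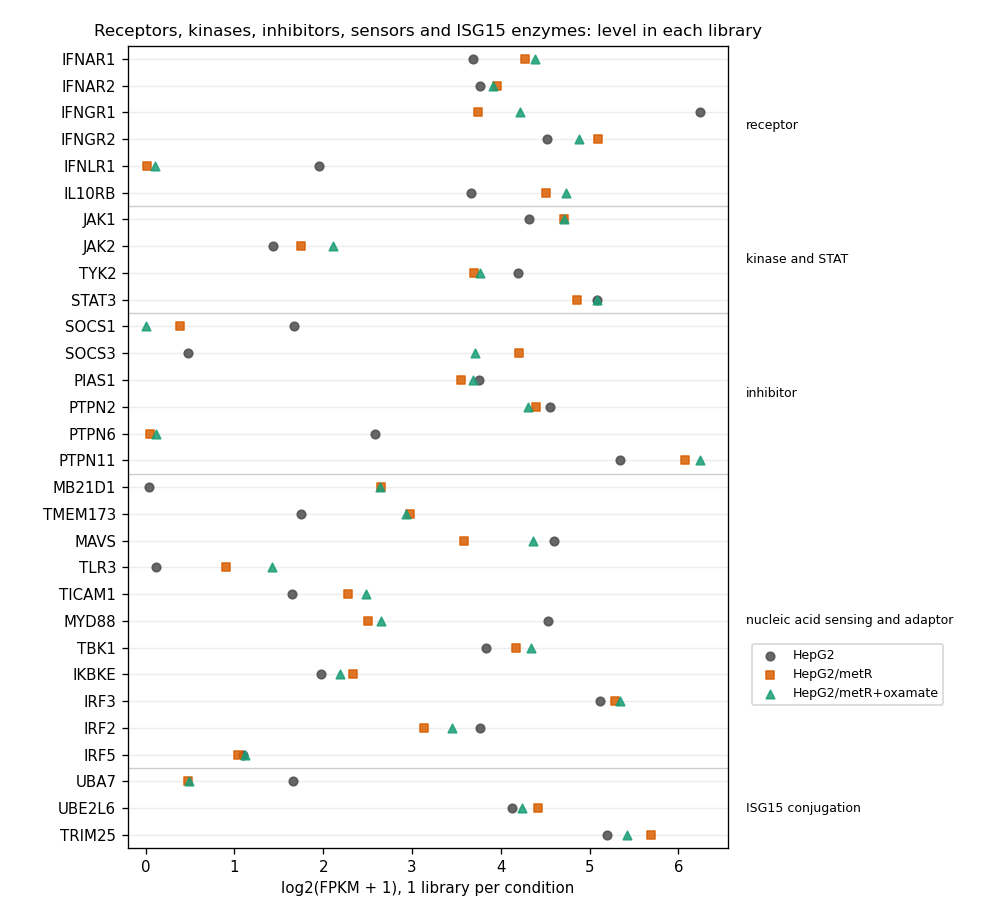
Level as log2(FPKM + 1) (horizontal axis) of receptors, kinases and STAT3, inhibitors, sensors and adaptors, and ISG15 enzymes in the parental HepG2 (grey circles), HepG2/metR (orange squares) and oxamate-treated HepG2/metR (green triangles) libraries, 1 library per symbol. IFNGR1, PTPN6 and MYD88 lie lower in both HepG2/metR libraries than in parental cells, and SOCS3, MB21D1 and TMEM173 higher.

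Of the 84 genes of this list, 52 were kept, and in HepG2/metR 10 of them (19.2%) lay at least 2-fold above and 7 at least 2-fold below their parental level, with a median difference of 0.24. Of all genes kept, 16.6% lay as far above and 17.6% as far below, so the shares in this list were near those of any gene. The higher genes besides SOCS3, MB21D1 and TMEM173 were IFI16, NMI, TRIM5, TRIM21, TRIM22, SP100 and CCL5. IFI16, a nuclear DNA sensor, was listed at 0.0647 FPKM in the parental culture, 16.2 in HepG2/metR and 19.8 under oxamate, a difference of 4.01. TRIM22, a ubiquitin ligase that restricts viruses, was listed at 0.694, 12.1 and 21.3 FPKM, a difference of 2.95. NMI, which binds STAT proteins, was listed at 2.49, 18.5 and 17.3 FPKM. TRIM5 was listed at 7.92, 18.4 and 27.5 FPKM, TRIM21 at 3.10, 8.87 and 10.8, SP100 at 11.1, 25.95 and 29.5, and the chemokine CCL5 at 0.0809, 1.80 and 1.28. The lower genes besides IFNGR1, PTPN6, MAVS and MYD88 were IFI30, GBP2 and ISG20. IFI30, a lysosomal thiol reductase induced by interferon gamma, was listed at 109 FPKM in the parental culture, 9.26 in HepG2/metR and 7.59 under oxamate, a difference of -3.42, GBP2 at 3.40, 0.1201 and 0.210, and ISG20 at 7.73, 2.76 and 2.45. As with MB21D1, the genes SOCS3, IFI16, TRIM22 and CCL5 passed the minimum only through the HepG2/metR libraries, in which they were high. PTPN6 and GBP2 passed it only through the parental library. CXCL10 and CXCL11, chemokines that interferons induce strongly, stayed at or under 0.0339 FPKM. With oxamate 2 of the 52 were at least 1.5-fold higher, MAVS and TRIM22, the latter by 0.77, against 4.30% of all genes kept, and 0 were lower.

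The genes of MHC class I antigen presentation, which interferons also induce, differed in both directions as well. Of 16 genes 15 were kept, with 2 past 2-fold upward in HepG2/metR (PSMB9 and ERAP2) and 2 past it downward. Of all genes kept, 16.6% lay as far up and 17.6% as far down. Of the 15, 11 were above 0 and 4 below, with a median difference of 0.22. B2M, the highest, was listed at 477 FPKM in the parental culture, 928 in HepG2/metR and 894 under oxamate, and HLA-C at 152, 69.5 and 79.8. Mapping to HLA genes depends on how close the alleles of the cells are to the reference, so these values are less certain. With oxamate 0 of the 15 passed 1.5-fold, against 4.30% of all genes kept upward and 3.82% downward.

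Marker lists of cell types that respond to or produce interferon gave these values beside the members. The leukocyte list of 12 genes summed to 95.7 FPKM in the parental culture, 44.1 in HepG2/metR and 31.9 under oxamate. In the parental library most of it came from CD68 and CD74, which are not restricted to leukocytes, and in the others from CD68 alone. CD68 was listed at 35.7, 42.95 and 31.0 FPKM. CD74 was listed at 54.1, 0.218 and 0.0917 FPKM, a difference of -5.50 between HepG2/metR and parental cells. In the parental library 4 of the 12 were at or above 1 FPKM, the others being CD3D and CD14. CD3D was listed at 2.72, 0 and 0 FPKM and CD14 at 2.19, 0.715 and 0.607. The defining leukocyte gene PTPRC was at 0.0430, 0.0142 and 0.0139 FPKM, and MS4A1 and NKG7 were listed at 0 in each library. The endothelial list of 7 genes summed to 2.29, 2.47 and 3.08 FPKM, mostly from TIE1. In the list of 10 fibroblast and mesenchymal genes 6 were kept, with 2 past 2-fold upward in HepG2/metR (VIM and THY1) and 3 lower (FN1, ACTA2 and TAGLN), and summed levels of 1584, 1696 and 1314 FPKM. These similar sums came from different genes, mostly FN1 in the parental library and mostly VIM in the others. FN1 was listed at 1503, 45.7 and 93.7 FPKM and VIM at 1.23, 1576 and 1140. THY1 was listed at 0.0374, 53.3 and 48.5 FPKM and COL1A2 at 0.141, 0.0129 and 0.0189.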

How the data were processed

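Total RNA was sequenced on an Illumina NextSeq instrument, with 1 library for each of 3 conditions. The authors deposited 1 value per gene symbol and library on a log2 scale, in the form log2(FPKM + 1). The submitters' processing notes name STAR 2.5.1b, Cufflinks 2.2.1, FastQC 0.11.5 and build hg19, with no stated order. The annotation and filters are not given in the sources used here, and total read counts are unknown.

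Values were used without further scaling, and differences are those of the deposited log2 values, whose pseudocount of 1 keeps some low genes inside the limits. Genes with a mean of at least 1 FPKM were kept. The limits were 2-fold for HepG2/metR against parental cells and 1.5-fold for oxamate, after the study's methods. Without replicates no test was run. The members and gene lists were chosen with earlier results of these data known. All members are named, with other pathway genes past a limit, every ligand class, receptor and kinase, and the highest MHC class I genes; some genes that this rule names are not reported here. PSMB9, ERAP2 and further pathway or marker genes were named after their values were seen. Promoter windows and gene order came from RefSeq (GRCh38.p14), which is not the build of the files. A planned comparison of proteins was replaced by coding sequences of GENCODE release 29, aligned globally over the longest coding sequence of each gene. For the relative depth of libraries, ratios of values below 0.15 FPKM were compared. The calculations were tested on simulated data first. Python 3.11, numpy 2.4.6, pandas 2.3.3, Biopython 1.88 and matplotlib 3.10.9 were used. Alternatives were pseudocounts of 0.1 and 0.01, no minimum or 5 FPKM, 3 scalings, other fold limits, and motif matches before the transcript start only.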

Additional observations from a re-analysis of the deposited data

How the results depend on the processing

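No paired analysis was possible because each condition has 1 library, and variation between cultures cannot be told apart from the conditions. Of the 8 members higher and 6 lower in HepG2/metR cells, 2 and 3 had a mean of at least 5 FPKM, so the higher ones no longer outnumbered the lower ones. Of all genes with such a mean, 13.9% were higher and 15.9% lower. With no minimum the members' counts were 8 higher and 7 lower, against 8.31% and 9.60% of all symbols. At a 1.5-fold limit 14 of the 26 members kept were higher and 7 lower, against 26.7% and 27.0% of all genes. With pseudocounts of 0.1 and 0.01, 11 were higher and 7 lower, and 8 calls were gained in both comparisons together, namely IRF1, HERC6, OAS2 and MX1 in HepG2/metR and IFIH1, USP18, IFIT2 and IFIT3 with oxamate. With oxamate, 5 members were higher with a pseudocount of 0.1, with a pseudocount of 0.01 and with the same total FPKM in each library, and 0 with a mean of at least 5 FPKM or a 2-fold limit. The members' median difference in HepG2/metR was 0.76 with pseudocounts of 0.1 and 0.01, 0.35 with no minimum and 0.81 with upper-quartile scaling, and that of the other pathway genes 0.00 and 0.37 under the latter pair, while the MHC class I genes gave 0.37 with upper-quartile scaling, under which the median of all genes moved to 0.15. With the same total FPKM, under which the median of all genes with oxamate was 0.17, the medians with oxamate were 0.24 for the members, 0.23 for the other pathway genes and 0.12 for the MHC class I genes. OAS1 was inside the 2-fold limit with upper-quartile scaling, at -0.87, and with the same total FPKM, at -0.93, and IRF1 was past it with upper-quartile scaling. No member past a limit changed direction under these alternatives. The ISRE core stood before the transcript start in 15 of the 16 members that held it. The unknown depth limits the values under 1 FPKM most.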
